A study of Drosophila melanogaster with 2 samples.

Results

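Xrp1-eGFP bound just upstream of 1235 protein-coding genes whose promoter has no coding partner on the other strand, at 1357 peaks. In the fruit fly Drosophila melanogaster they made up 18% of the 7534 peaks that the conservative list holds on 6 chromosome arms. A peak was counted when its summit, the base of highest signal, lay 1 to 500 bp upstream of the nearest transcription start site (TSS) and that TSS belonged to a protein-coding gene. Peaks with a TSS of another protein-coding gene on the opposite strand, or of a noncoding RNA gene, within 500 bp of the summit were left out. Of 2088 summits 1 to 500 bp upstream of a coding TSS, this removed 679 for the opposite coding TSS and 52 for a noncoding RNA alone. The rule used only positions, and not the strength, replicate values or sequence of the peaks. Both replicates were chromatin from whole embryos, aged 8 to 24 hours, of 1 transgenic fly line that carries an insertion expressing Xrp1 fused to eGFP, precipitated with an antibody to GFP. There was 1 group, so that peaks were compared with peaks and no genotype, stage or treatment could be compared. Whole embryos mix all tissues, and more cells with a bound site cannot be told apart from more binding per cell. The files hold peak lists without counts, so that read depth is unknown.

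Xrp1 belongs to the C/EBP-type basic leucine zipper (bZIP) factors and carries an AT-hook, a short motif that in other proteins contacts the minor groove of AT-rich DNA. It pairs with Irbp18, another C/EBP-type protein, and is known for its induction by DNA damage and in cells with too little ribosomal protein that are lost in cell competition. The stretch just upstream of a TSS is where a core promoter meets the sites of sequence-specific factors, and it is commonly free of nucleosomes. At a divergent pair 2 genes share this stretch, whereas at an unpaired promoter it serves a single coding gene.

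Of the strongest peaks, 6 are shown with their runs of A and T. They are the 6 strongest among those that could be shown and have no annotated exon in the window. All sequences are from the RefSeq copy of dm6, run 5′ to 3′ on the strand of the gene so that the TSS lies beyond the right end, reach 50 bp to each side of the summit, and stop 1 bp before the TSS where that comes sooner. Capitals mark runs of 8 or more bases of A and T alone.
Ugalt, chrX:2703853-2703940, minus strand, summit 38 bp upstream: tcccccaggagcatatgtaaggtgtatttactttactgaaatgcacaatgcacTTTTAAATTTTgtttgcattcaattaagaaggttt
CG14100, chr3L:19590571-19590671, minus strand, summit 97 bp upstream: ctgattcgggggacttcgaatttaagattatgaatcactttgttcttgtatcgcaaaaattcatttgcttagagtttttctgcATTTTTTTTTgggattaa
ph-p, chrX:2137289-2137389, minus strand, summit 484 bp upstream: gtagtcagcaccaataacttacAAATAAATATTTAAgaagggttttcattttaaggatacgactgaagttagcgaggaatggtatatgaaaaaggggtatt
CG18549, chr3R:12449125-12449225, plus strand, summit 121 bp upstream: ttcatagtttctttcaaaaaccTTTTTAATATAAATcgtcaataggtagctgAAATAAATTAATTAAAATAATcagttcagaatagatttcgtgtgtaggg
RluA-1, chr2L:10474479-10474579, minus strand, summit 180 bp upstream: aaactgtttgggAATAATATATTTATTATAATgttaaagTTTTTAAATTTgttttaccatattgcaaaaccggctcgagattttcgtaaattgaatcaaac
gish, chr3R:16280680-16280780, plus strand, summit 159 bp upstream: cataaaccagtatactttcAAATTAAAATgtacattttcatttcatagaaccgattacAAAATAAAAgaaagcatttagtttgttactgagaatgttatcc
The Ugalt window held 67% A+T with a longest run of 11 bases, and the CG18549 window 74.3% with a run of 21 bases. Each of the 6 windows held at least 1 such run, but over all conservative peaks the longest run had a median of 10 bases. The windows of Ugalt, ph-p (67.3%) and CG14100 (68.3%) were not above the median A+T of all conservative peaks, 68.3%.

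The gene of the factor itself had 2 peaks in the class, and its sequences are shown in the same way.
Xrp1, chr3R:18918182-18918259, plus strand, summit 28 bp upstream: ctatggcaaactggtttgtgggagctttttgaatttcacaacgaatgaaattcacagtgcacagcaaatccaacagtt
Xrp1, chr3R:18914782-18914882, plus strand, summit 136 bp upstream: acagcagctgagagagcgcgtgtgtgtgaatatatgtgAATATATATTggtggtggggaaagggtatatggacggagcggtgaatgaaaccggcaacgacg
The summit 28 bp upstream of an internal TSS had no A/T run of 8 bases in its window, of which 60.3% was A or T. The weaker summit 136 bp upstream held 50.5%, with 1 run of 10 bases. Neither window held one of the 6 bZIP consensus sequences searched.

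For 4 consensus sites of bZIP factors the strongest peak that could be shown is given with the site in capitals. Each was in 10 or fewer of the 1357 windows, and none was called as different from peaks at other places. The sites are the C/EBP palindrome TTGCGCAA (pod1), the PAR-type site TTACGTAA (X11Lbeta), the cAMP response element (CRE) TGACGTCA (Unr) and the AP-1 site TGACTCA, here on the reverse strand (Coq7).
pod1, chrX:6804837-6804937, plus strand, summit 98 bp upstream: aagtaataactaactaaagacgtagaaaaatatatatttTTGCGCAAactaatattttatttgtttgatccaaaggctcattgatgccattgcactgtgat
X11Lbeta, chrX:10628938-10629038, plus strand, summit 329 bp upstream: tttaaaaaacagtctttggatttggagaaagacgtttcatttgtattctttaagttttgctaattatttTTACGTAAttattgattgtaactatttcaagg
Unr, chr3L:8442398-8442498, minus strand, summit 67 bp upstream: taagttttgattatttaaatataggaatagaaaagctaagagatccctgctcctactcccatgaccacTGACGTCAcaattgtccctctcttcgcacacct
Coq7, chrX:6771075-6771175, plus strand, summit 100 bp upstream: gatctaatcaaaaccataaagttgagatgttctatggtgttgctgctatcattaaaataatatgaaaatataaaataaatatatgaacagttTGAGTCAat
Coq7 encodes an enzyme of ubiquinone synthesis. The same selection gave the peaks below for the DNA replication-related element (DRE) TATCGATA of housekeeping promoters, the GAGA element GAGAGAG and the E-box CAGCTG.
CG7006, chr3R:24850537-24850626, plus strand, summit 40 bp upstream: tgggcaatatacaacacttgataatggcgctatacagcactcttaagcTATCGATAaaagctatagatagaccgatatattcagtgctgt
rau, chr2L:5879639-5879739, minus strand, summit 191 bp upstream: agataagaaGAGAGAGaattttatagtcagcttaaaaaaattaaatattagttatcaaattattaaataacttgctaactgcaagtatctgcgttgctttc
Hpf1, chr3R:5791726-5791826, plus strand, summit 103 bp upstream: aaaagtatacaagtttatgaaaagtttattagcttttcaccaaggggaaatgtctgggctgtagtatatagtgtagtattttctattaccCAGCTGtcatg

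At Ugalt, whose product moves UDP-galactose into the Golgi, the signal was 1938.1 in the list of replicate 1 and 1142.9 in that of replicate 2, and 3072.7 in the list of both. That was the highest of all 7534 peaks. The signal is the authors' own peak value and ranks peaks within a list only. CG14100 followed with 1847.6 in replicate 1, 1091.4 in replicate 2 and 2920.1 in both. At px, a wing vein patterning gene, replicate 1 gave 1861.8, replicate 2 gave 982.8 and both gave 2838.2, at an intronic summit 203 bp upstream of a TSS. The Polycomb group gene ph-p had 1618.0 in replicate 1, 925.5 in replicate 2 and 2504.8 in both, with its summit close to the far edge of the class at 484 bp. All 20 strongest peaks were in both replicates' own lists. They included RluA-1, a pseudouridine synthase gene (1905.9 in the list of both), the casein kinase gene gish (1839.7), Btk, a Tec-type tyrosine kinase gene (1468.8), msi, which encodes the RNA-binding protein Musashi (1336.2), Sox14, an ecdysone-induced transcription factor gene (1307.6), for, a cGMP-dependent kinase gene (1304.0), and Rtnl1, the reticulon gene (1278.6). Of the 20 summits, 3 lay within 100 bp of the TSS, those of Ugalt at 38 bp, MFS18 at 86 bp and CG14100 at 97 bp.

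**Figure D1:**
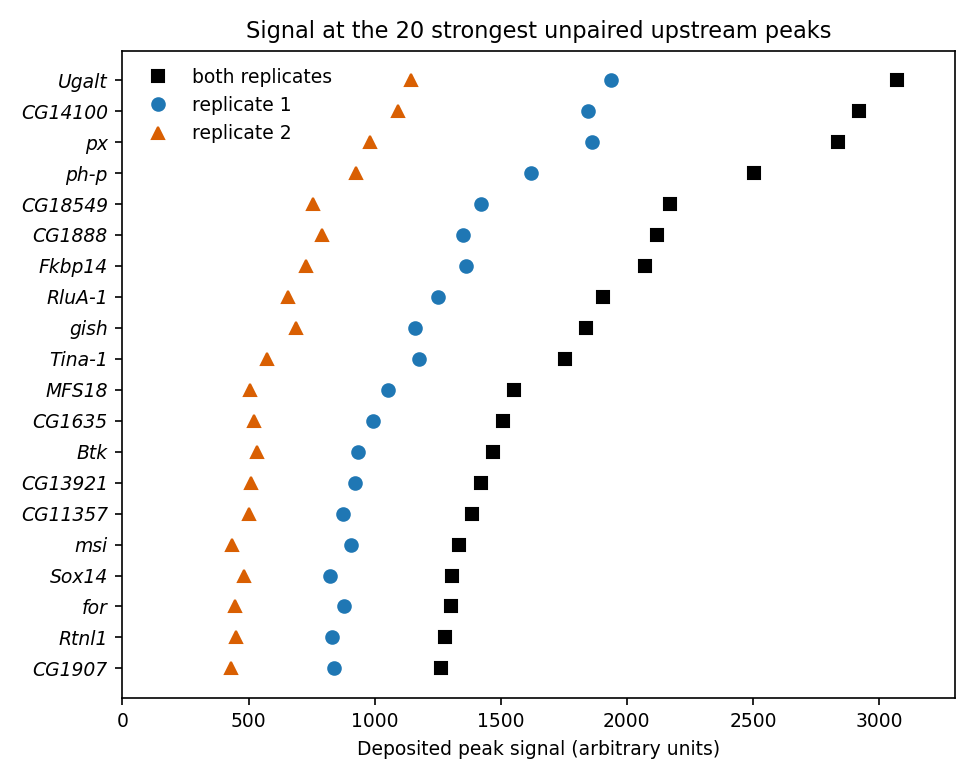
Deposited peak signal (x axis, arbitrary units, 1 scale per list) at the 20 strongest unpaired upstream peaks (y axis, gene of the nearest TSS), from the list of both replicates (squares), replicate 1 (circles) and replicate 2 (triangles). Among these 20 peaks Ugalt has the highest value from each of the 3 lists, and in the list of both replicates the 20 run down to CG1907 with 1263.1.

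Over all 1357 peaks the median signal was 130.6, with the middle 50% between 85.4 and 252.9. The strongest 25%, 339 peaks, reached down to 253.3, and the weakest 25%, also 339, ran from 85.2 to 2.02. They are called the 339 strongest and the 339 weakest here. Under a signal of 40 lay 51 peaks, of which 45 overlapped a stronger conservative peak, such as the peak of dnc with 5.23. In all, 125 of the 1357 shared bases with another conservative peak. Of the genes, 1134 had 1 such peak, 84 had 2, 13 had 3 and 4 had 4, and at 72 of the genes with more than 1 the peaks belonged to different TSSs. The genes with 4 were Rtnl1, Ptpmeg2, Svil and dnc. At Ptpmeg2, a tyrosine phosphatase gene, the signals were 817.3, 790.4, 445.6 and 228.5. At Rtnl1 they were 1278.6, 610.7, 391.8 and 182.2, all intronic, and at dnc, the cAMP phosphodiesterase gene of learning, 639.0, 346.7, 157.1 and 5.23. Over the class, 764 summits (56.3%) were intergenic and 392 (28.9%) in an intron of the same gene, upstream of an inner TSS. Another 80 (5.9%) lay in an intron of another gene and 40 (2.95%) in a 3′ UTR of another gene. Only 2 lay in coding sequence of another gene.

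Unpaired upstream peaks were more often strong than peaks just downstream of a coding TSS or far from any TSS. Of the 1357 peaks, 412 (30.4%) were in the strongest 25% of the whole list, against 59 of 421 (14%) just downstream (Fisher's exact test, two-sided, adjusted p = 1.70e-11 by Benjamini-Hochberg over 3 comparisons) and 1034 of 4557 (22.7%) with no TSS within 500 bp (adjusted p = 2.28e-08). The class of divergent coding pairs held peaks whose nearest TSS was coding, with another gene's opposite coding TSS within 500 bp of the summit. The arrangement of the 2 TSSs was not checked, and 679 of the 847 summits lay upstream of the nearest TSS. Of the 847 peaks, 292 (34.5%) were strong, so that the share of unpaired ones differed by -4.11 percentage points (exact adjusted p = 0.0485). That difference was not called in the list of either replicate alone (exact adjusted p = 0.0936 for replicate 1 and 0.812 for replicate 2). With the strongest 50% of the list in place of 25%, the difference from peaks with no TSS nearby was 2.84 points and was no longer called (exact adjusted p = 0.0681). Median signals were 130.6 for unpaired upstream peaks, 150.6 at divergent pairs, 85.9 just downstream and 121.9 with no TSS nearby. Peaks of 1 list are not replicates of a condition, and these tests describe the list.

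The replicates differed in how many of the peaks their own lists held. Replicate 1's list shared at least 1 base with 1132 of the 1357 peaks (83.4%, 95% Wilson interval 81.3 to 85.3) and replicate 2's list with 776 (57.2%, 54.5 to 59.8). Both lists held 729 of them, replicate 1 alone 403, replicate 2 alone 47, and neither list 178. Replicate 1's list held 99.7% of the 339 strongest and 46.3% of the 339 weakest. Replicate 2's list held 99.4% of the 339 strongest and 16.8% of the 339 weakest. Replicate 1's list held unpaired upstream peaks less often than peaks at divergent pairs, 83.4% against 88.9% (Fisher's exact test, adjusted p = 0.000566), and more often than those just downstream (63.4%, adjusted p = 1.60e-16). The difference from peaks with no TSS nearby (82%) was not called (exact adjusted p = 0.224). At the 1276 summits inside a ranked peak of both replicates, the signals of the replicates had a Spearman rho of 0.839, a description across peaks. The list had been thresholded on agreement between these replicates, so that a high rho was in part fixed in advance. The replicates' own summits lay a median of 13 bp apart at the 339 strongest and 36.5 bp apart at the 339 weakest. Replicate 2's list held unpaired upstream peaks more often than peaks just downstream, 57.2% against 43.9% (Fisher's exact test, adjusted p = 7.31e-06). This was not called among peaks with a global irreproducible discovery rate (IDR) of at most 0.005, where the difference was 6.07 points (exact adjusted p = 0.124). The differences from divergent pairs (61.7%) and from peaks with no TSS nearby (53.9%) had an exact adjusted p of 0.0365 each and were lost when 50% of the peak had to be covered (adjusted p = 0.221 and 0.228).

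The strongest peaks that replicate 2's list lacked were at bin3 (241.7 in replicate 1's ranked list, 102.6 in replicate 2's) and E(spl)m7-HLH, a Notch target of the Enhancer of split complex (241.5 and 98.5 in the same order). They were followed by drn, CG8490 and scrt, with 50.1 to 59.9 in replicate 2's ranked list. All 5 had a ranked peak in replicate 2. The strongest that replicate 1's list lacked were at by, the tensin gene, MFS15, Fmo-2, sea and CG9328, with signals of 279.0 to 133.9 in the list of both, and CG9328 was in neither list. Just inside the rule's outer bound lay Hsc70-3 and Fim at 500 bp (signals 153.7 and 117.4) and PHDP at 499 bp (308.1), and just outside, at 501 bp, CG17896 (607.7), Pino (192.3) and Obp28a (69.7).

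The strongest and the weakest peaks stood at different places upstream of the TSS. Of the 339 strongest, 32 summits (9.44%) lay 1 to 100 bp upstream, against 134 (39.5%) of the 339 weakest (two-sided Fisher's exact test, p = 1.85e-20). The next 100 bp held 43.7% of the strongest, their most frequent place, and 27.4% of the weakest. The median distance was 197.0 bp for the 339 strongest (middle 50% from 142.0 to 274.0 bp) and 130.0 bp for the 339 weakest (62.5 to 240.0 bp). Over all 1357 peaks it was 168.0 bp. Fewer positions meet the rule further out, and counted per megabase (Mb) of such positions the class had 256.8 peaks at 1 to 100 bp (exact Poisson interval 230.5 to 285.3), 372.0 in the next 100 bp (338.8 to 407.6), and then 222.8, 168.5 and 102.4 in the further steps of 100 bp. The 5.89 Mb of positions that meet the rule held 230.4 peaks per Mb, against 56.3 conservative peaks per Mb of the 6 arms. Intervals here cover counting error only.

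**Figure D2:**
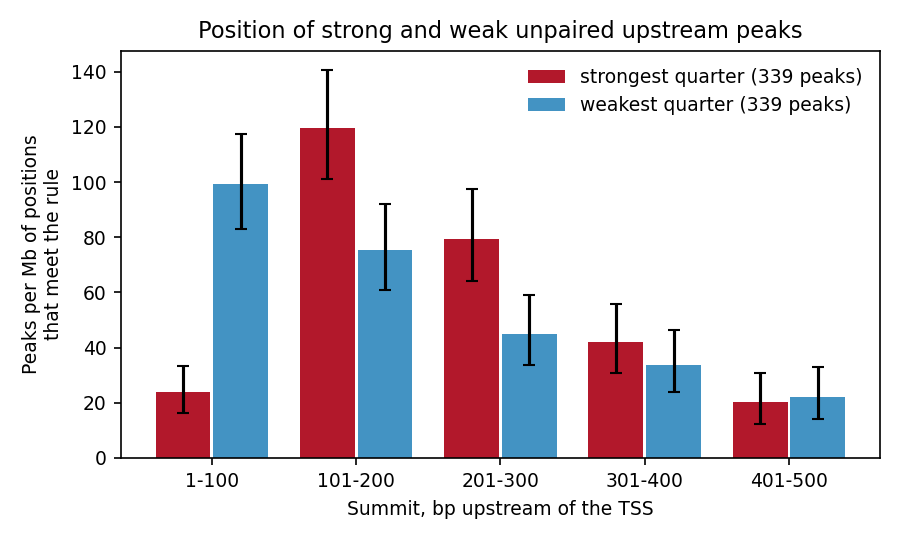
Peaks per Mb of positions that meet the rule (y axis) by distance of the summit upstream of the TSS (x axis, bp), for the 339 strongest (left bars) and the 339 weakest (right bars) unpaired upstream peaks, with exact 95% Poisson intervals. In the first 100 bp the strongest had 23.7 per Mb and the weakest 99.2, and in the next 100 bp the strongest had 119.7 and the weakest 75.2.

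A+T content followed the strength of the peaks. Within 50 bp to each side of the summit the bases were A or T at a median of 72.3% in the 339 strongest (middle 50% from 66.3 to 76.2%) and 60.4% in the 339 weakest (51.5 to 68.3%). The longest stretch of A and T alone had a median of 12 bases in the strongest and 8 in the weakest. The median of the whole list was 68.3%, and 220 of the 339 strongest peaks (64.9%) lay above it, against 81 of the 339 weakest (23.9%; Fisher's exact test, p = 2.38e-27). This measure was chosen after the data were seen. The difference was 41 percentage points in the list of both replicates, 35.9 in replicate 1's own list and 37.7 in replicate 2's. Since the weakest summits lay nearer to the TSS, it was also computed for summits more than 100 and up to 300 bp upstream alone, where it was 34.6 points (exact p = 6.79e-11). The cause of the difference was not tested.

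The strongest peaks had their highest A+T at the summit, while in the weakest it was higher upstream of the summit than at it. In the 339 strongest A+T was 72.7% at the summit, 59.4% at 150 bp upstream of the summit and 51.6% at 150 bp towards the TSS. In the 339 weakest it was 59.9% at the summit and 56.6% at 150 bp towards the TSS. Upstream of these summits it was 65.3% at 100 bp from the summit, 65.2% at 150 bp and 65.2% at 250 bp. Windows 500 bp further upstream had medians of 60.4% for the strongest and 61.4% for the weakest. Over all 1357 peaks the median of 67.3% at the summit compared with 61.4% there. Unpaired upstream summits lay above the list's median in 45% of cases, against 56.7% at divergent pairs (Fisher's exact test, adjusted p = 1.35e-07), 16.6% just downstream (adjusted p = 3.59e-27) and 48.6% with no TSS nearby (adjusted p = 0.0186). Promoter windows of the same length were centred 150 bp upstream of 1 TSS per gene. It was the TSS of lowest coordinate at which that position meets the rule, and not always the TSS beside the peak. Their median A+T was 65.3% in 1210 eligible genes with such a peak and 63.4% in 8496 without. In 328 eligible genes with a peak among the 339 strongest this promoter median was 64.4%, beside 72.3% at the summits of those peaks. An eligible gene is a coding gene with at least 1 position that meets the rule.

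**Figure D3:**
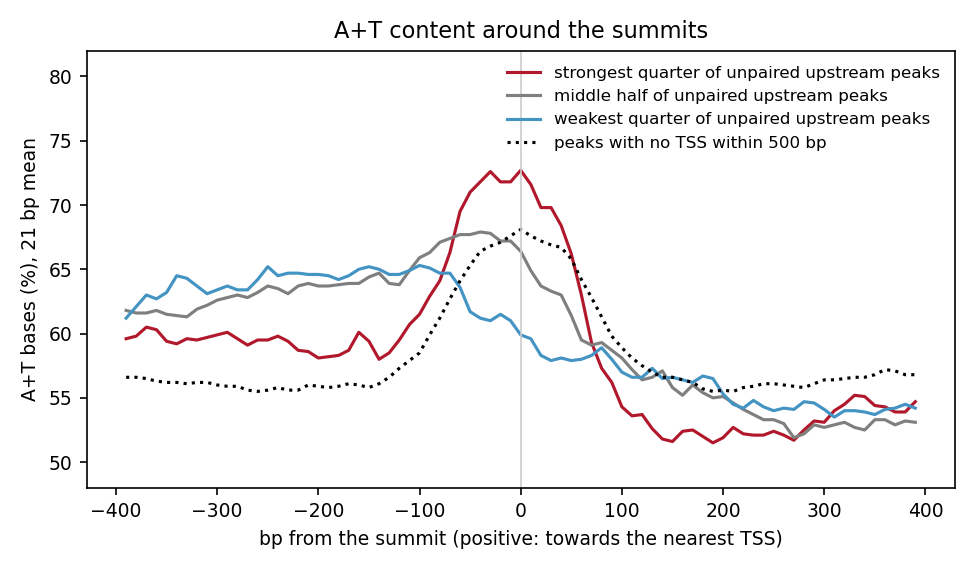
Share of A and T bases (y axis, %, mean over 21 bp) by distance from the summit (x axis, bp, positive towards the nearest TSS) for the 339 strongest, the middle 50% and the 339 weakest unpaired upstream peaks, and for peaks with no TSS within 500 bp (dotted). The strongest reach 72.7% at the summit and 51.6% at 150 bp towards the TSS, while the weakest have 59.9% at the summit.

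Words of 6 bases were counted as a description. Of 2080 words, read on both strands, the 20 with the largest excess at the 1357 summits over windows 500 bp further upstream were made of A and T alone. AAATAT was in 34.9% of summit windows and 21.1% of the windows further upstream, AAAATA in 37.7% and 25.2%, and TTAAAA in 33.5% and 21%. The next were AAAAAT (36.8% and 24.9%), AAATAA (34.9% and 23.7%) and TAAAAA (33.7% and 22.6%). The first word with a C or G was TTCAAA, at rank 22. The ranking was not adjusted for A+T content, with a median of 67.3% at the summits and 61.4% in the windows further upstream. It is therefore not separate from that difference.

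No bZIP consensus passed the test between unpaired upstream summits and other peaks. Of 15 motifs tested against each of the other classes, 3 (20%) differed from divergent pairs, 1 (6.67%) from peaks just downstream and 5 (33.3%) from peaks with no TSS nearby, and none of the 6 bZIP motifs was among them (Fisher's exact test, adjusted over 45 comparisons). At an unadjusted p under 0.05 there was 1, the CRE against peaks with no TSS nearby (exact p = 0.0277, adjusted p = 0.113). The C/EBP palindrome was in 4 of 1357 windows, the C/EBP-ATF composite TTGCATCA in 1, the PAR-type site in 1, the CRE in 4 and the AP-1 site in 10. The looser C/EBP-like consensus TTGCNNAA, which includes the palindrome, was in 128 windows (9.43%), against 9.92% at divergent pairs, 9.26% just downstream and 8.76% with no TSS nearby (exact adjusted p = 0.969, 1 and 0.746). Over 50 bp steps from 400 bp on one side of the summit to 400 bp on the other, its share ranged between 3.46% and 5.9%, the highest value falling in the step just before the summit. Promoter windows were also centred 100 bp upstream of 1 TSS per gene, chosen as for A+T and not always beside the peak. There the C/EBP-like consensus was in 8.24% of 1225 eligible genes with a peak and 8.27% of 8679 without. These counts say only that the letters were or were not in these windows.

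Some of the other motifs differed between the classes, in shares not adjusted for A+T content, which differed between the classes too. DRE, bound by the housekeeping factor Dref, was in 2.36% of unpaired upstream windows, against 0.219% of those with no TSS nearby (Fisher's exact test, adjusted p = 1.48e-11) and 4.84% at divergent pairs (adjusted p = 0.0116). The second difference was not called in the list of either replicate (exact adjusted p = 0.485 for replicate 1 and 0.854 for replicate 2). The GAGA element, bound by the Trl protein, was in 2.87% of unpaired upstream windows, against 0.59% at divergent pairs (exact adjusted p = 0.00126) and 1.03% with no TSS nearby (adjusted p = 8.44e-05). The TATA consensus TATAAA, counted on both strands at any place in the window, was in 21.7%, against 28% at divergent pairs (exact adjusted p = 0.00673) and 13.8% just downstream (adjusted p = 0.00208). With no TSS nearby it was in 23.9%, a difference that was not called (exact adjusted p = 0.274). The difference from divergent pairs was not called in either replicate's list (exact adjusted p = 0.066 in replicate 1's and 0.242 in replicate 2's). The E-box CAGCTG was in 4.64%, against 2.24% with no TSS nearby (exact adjusted p = 0.000121), a difference not called in replicate 2's list (adjusted p = 0.242). The core of Motif 1 (GGTCACAC), which was in 0.958% against 0.197% with no TSS nearby (exact adjusted p = 0.00208), was not called in replicate 1's list (adjusted p = 0.194). A run of 8 A bases was in 6.48%, against 8.71% with no TSS nearby (exact adjusted p = 0.0403), which neither replicate's list called (adjusted p = 0.194 in replicate 1's and 0.8 in replicate 2's). Of the 9 calls in all, windows of 51 bp left 1, that of DRE against peaks with no TSS nearby, and replicate 1's list gave 5. In the promoter windows centred 100 bp upstream of 1 TSS per gene, DRE was in 2.2% of eligible genes with a peak and 1.84% without. In the same order GAGA was in 8.73% and 3.85%, TATAAA in 14.3% and 15.5%, CAGCTG in 5.96% and 4.89%, and Motif 1 in 0.653% and 0.599%. For the bZIP sites these shares were 0.0816% and 0.115% for the C/EBP palindrome, 0 and 0.253% for the composite, 0.0816% and 0.184% for the PAR-type site, 0.408% and 0.219% for the CRE and 0.816% and 1.01% for the AP-1 site, again with and without a peak.

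Within 50 bp to each side of the summit, DRE, GAGA, the E-box and Motif 1 were rarer in the strongest than in the weakest peaks of the class. Of 15 motifs 5 (33.3%) differed between the 339 strongest and the 339 weakest. The same windows differed in A+T, with medians of 72.3% and 60.4%, and no motif share was adjusted for base composition. Whether the motifs differ beyond that composition was not tested. DRE was in 1 of 339 strongest and 16 of 339 weakest peaks (0.295% and 4.72%; Fisher's exact test, adjusted p = 0.00117), GAGA in 0.59% and 5.6% (adjusted p = 0.00117), the E-box CAGCTG in 2.06% and 6.49% (adjusted p = 0.0225) and Motif 1 in 0 and 8 of 339 (adjusted p = 0.0225). A count of 0 in 339 peaks allows a share of up to 0.885%. TATAAA went the other way, with 31.9% of the strongest and 12.1% of the weakest (exact adjusted p = 8.20e-09), and was the 1 motif called in replicate 2's own list. Motif 1 was not called in replicate 1's list either (exact adjusted p = 0.362). In windows of 51 bp 2 motifs were called, TATAAA and DRE. In windows reaching 100 bp to each side GAGA was not called (difference of -4.13 points, exact adjusted p = 0.165), and within 150 bp its letters were more frequent around the strongest, in 18.3%, than around the weakest, in 11.8%, which was not tested. Position moved with DRE, Motif 1, the E-box and TATAAA, while GAGA was not called by distance (3.75% within 100 bp and 2.57% farther upstream, exact adjusted p = 0.443). Between summits within 100 bp and those farther upstream 6 of 15 motifs (40%) differed. DRE was in 6.34% of the nearer and 0.99% of the farther summits (Fisher's exact test, adjusted p = 1.92e-06), Motif 1 in 3.17% and 0.198% (adjusted p = 6.29e-05), the E-box CAGCTG in 8.65% and 3.27% (adjusted p = 0.000575) and TATAAA in 9.8% and 25.8% (adjusted p = 7.76e-10). The Initiator core TCAGT (19.9% and 14.3%, exact adjusted p = 0.041) was called by neither replicate: replicate 2's list gave a difference of -0.863 points. A run of 8 A bases (3.46% and 7.52%, exact adjusted p = 0.0227) was also not called with replicate 1. Windows of 51 bp left 3 calls, those of DRE, Motif 1 and TATAAA.

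**Figure D4:**
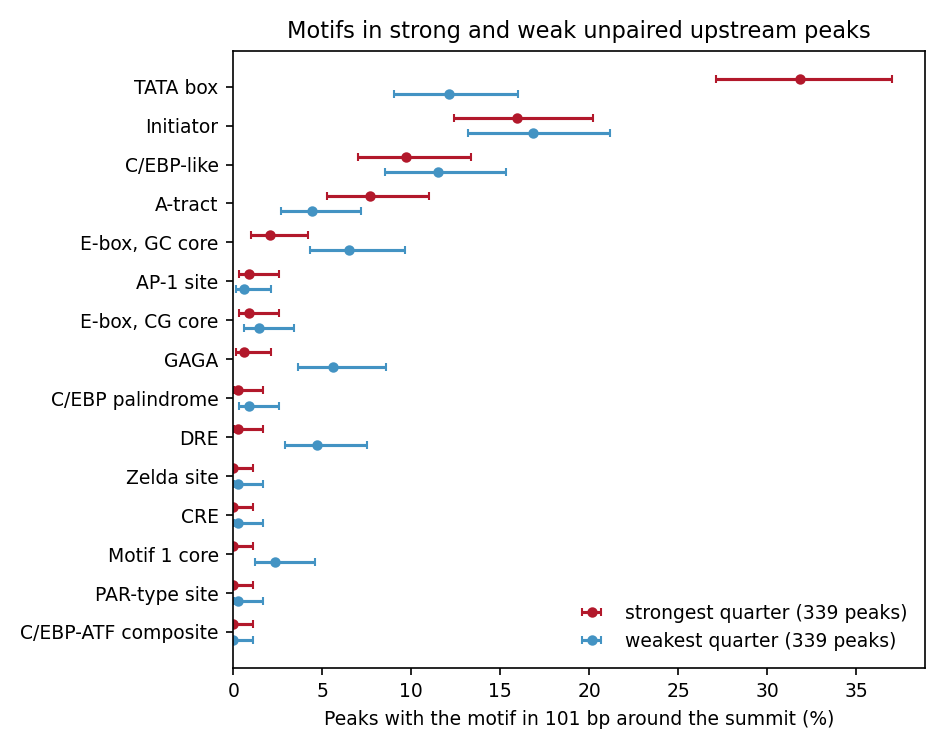
Share of peaks with each motif within 50 bp to each side of the summit (x axis, %) for the 339 strongest (upper points) and the 339 weakest (lower points) unpaired upstream peaks, with 95% Wilson intervals. The TATA consensus stands at 31.9% in the strongest and 12.1% in the weakest, and DRE, GAGA and the E-box with a GC core stand lower in the strongest. Shares are not adjusted for base composition.

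Other words were unevenly placed around the summits. They were chosen after the data were seen and are given without a test. CACAGTG or its reverse complement was within 150 bp to each side of 62 of the 339 strongest summits (18.3%, 14.5 to 22.8) and of 26 of the weakest (7.67%, 5.29 to 11). In the strongest it was in 24 peaks 50 to 100 bp towards the TSS and in 18 at 100 to 150 bp. On the other side of the summit it was in 15 and 10 peaks at the same distances. The 50 bp steps beside the summit held it in 8 peaks towards the TSS and in 2 on the other side. AGGGTAT was around 39 of the strongest (11.5%) and 21 of the weakest (6.19%) summits. CTCTCTC, the other strand of the GAGA letters, was around 62 of the strongest (18.3%, 14.5 to 22.8) and 40 of the weakest (11.8%, 8.79 to 15.7) summits. It was rare next to the summit in the strongest, with 1 peak in each 50 bp step beside it. At 100 to 150 bp from the summit it was in 25 peaks towards the TSS and in 22 on the other side. ACTATCG was the reverse case, with 10 of the strongest (2.95%) and 36 of the weakest (10.6%). Over the 1357 peaks it was in 33 and 31 in the steps on either side of the summit, and in 10 or fewer in each step beyond 100 bp. In promoter windows of this length, centred 150 bp upstream of 1 TSS per gene, CACAGTG was in 7.93% of eligible genes with a peak and 3.08% without. In the same order AGGGTAT was in 6.53% and 2.79%, CTCTCTC in 14.2% and 6.81% and ACTATCG in 7.19% and 3.8%. The TSS taken was not always that beside the peak. Of the other classes, divergent pairs had the most ACTATCG (16.5%) and the least CTCTCTC (1.53%). CACAGTG and AGGGTAT were in 11% and 6.78% of peaks with no TSS nearby, beside 12% and 7.52% over the 1357 peaks. At divergent pairs these shares were 5.67% and 3.54%, and just downstream 7.13% and 1.9%. The peak of Dpp10, with a signal of 407.0, is the strongest that could be shown, free of exons, that held the 3 words other than ACTATCG. Capitals mark them on either strand in 300 bp with the summit at its centre.
Dpp10, chr2L:6601216-6601515, minus strand, summit 298 bp upstream: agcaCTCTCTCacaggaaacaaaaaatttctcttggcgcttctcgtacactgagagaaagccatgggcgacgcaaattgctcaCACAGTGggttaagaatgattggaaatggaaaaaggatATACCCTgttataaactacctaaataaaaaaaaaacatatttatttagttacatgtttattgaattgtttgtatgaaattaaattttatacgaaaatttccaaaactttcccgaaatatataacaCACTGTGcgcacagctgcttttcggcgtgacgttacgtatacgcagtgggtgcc

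Unpaired upstream peaks stood at bZIP factor genes, stress response genes and growth control genes in a larger share than over all genes. Of 10477 eligible coding genes 1235 (11.8%, 11.2 to 12.4) had such a peak. Each list is given by its count beside that share, with no test of the list. The lists were chosen with earlier results of these data known, and Xbp1 counts in both the bZIP and the stress response list. A gene counts through any of its TSSs, and the shares were not adjusted for the number of TSSs per gene. For bZIP factors the count was 8 of 20 (40%), for the integrated and unfolded stress responses 6 of 18 (33.3%), and for JNK, Hippo and growth signalling 9 of 22 (40.9%). The strongest bZIP peak was at REPTOR, a factor that acts under low TORC1 activity, with 506.8 in replicate 1, 275.3 in replicate 2 and 784.2 in both. Atf3 followed with 475.2 in replicate 1, 247.7 in replicate 2 and 724.7 in both. Xrp1 itself had 330.5 in replicate 1, 251.4 in replicate 2 and 590.4 in both, and a weaker peak with 55.4, 45.3 and 93.2 in that order. Xbp1, the unfolded protein response factor, had 448.9 in both, and the clock-related factors vri and Pdp1 had 271.5 and 197.4. The peaks of cnc, the fly Nrf2 (82.9), and Atf-2 (78.5) were in replicate 1's own list and not in replicate 2's. Irbp18 has no position that meets the rule, and crc, the fly ATF4, was eligible without such a peak.

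Among the stress response genes, aay had 744.7 in replicate 1, 389.0 in replicate 2 and 1137.4 in both. It encodes phosphoserine phosphatase, the last enzyme of serine synthesis. Sesn, the sestrin gene, had 584.9 in replicate 1, 377.9 in replicate 2 and 916.0 in both. The endoplasmic reticulum chaperone genes Gp93 and Hsc70-3 had 199.5 and 153.7 in both, and Ero1L, an oxidase of that compartment, 78.1. Of the growth genes, the kinase gene hpo of the Hippo pathway had 118.9 in replicate 1, 111.4 in replicate 2 and 241.6 in both, at 52 bp. At bsk, which encodes JNK, the signal was 143.7. Other peaks of the list were at ex (133.5), ft (126.7), foxo (108.1), Mondo (99.1) and InR (73.9), the last of which was in neither replicate's own list. The signal at Mer was 8.45, from a peak without a ranked peak of either replicate at its summit. The median signal of the growth genes was 126.7, beside 130.6 over the class.

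The other lists are given by counts in the same way. Cytosolic ribosomal proteins had 12 of 55 (21.8%, 12.9 to 34.4), led by RpL23A (211.6) and RpL11 (159.3), at a median signal of 77.9. Of these 12 peaks 11 lay within 99 bp of the TSS, with RpL11 at 184 bp the exception. Polycomb and trithorax genes had 5 of 15, in the order ph-p, Trl, kis, ph-d and pho, where ph-p had 2504.8 and the rest 150.1 or less. Heat shock and chaperone genes had 3 of 18, with Hsp27 at 1072.0 and Hsp26 at 380.7. Muscle genes had 5 of 24, led by the heart factor gene tin (1005.9) and the titin-like gene sls (423.5), and the cell cycle list 7 of 27, led by Dp, the E2f partner (389.3). Translation initiation factors had 5 of 29, among them eIF3c (234.3) and eIF2D (187.5). Apoptosis genes had 2 of 13, the death inducer gene hid (366.1) and egr, the fly TNF (85.9), whose peak was in neither replicate's own list. Oxidative phosphorylation had 4 of 45 (8.89%), glutathione transferases 3 of 32, mitochondrial ribosomal proteins 2 of 21 (9.52%), proteasome subunits 2 of 30 (6.67%), neuronal genes 2 of 23 and hemocyte and fat body genes 1 of 22, the GATA cofactor gene ush (190.1). Vesicle traffic had 7 of 45 (15.6%), led by Rab5 (480.2), Hox and segmentation genes 4 of 26, led by bcd (276.3), and DNA damage and repair genes 2 of 15 (13.3%), spel1 (369.7) and Fancm (108.3). Aminoacyl-tRNA synthetases had 3 of 14, general transcription factors 2 of 15, RNA polymerase subunits 2 of 12, autophagy genes 2 of 9, vacuolar ATPase subunits 2 of 21 and germline genes 2 of 7. Nuclear pore genes had 0 of 8 and Mediator subunits 0 of 11, with Wilson upper bounds of 32.4% and 25.9%.

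**Figure D5:**
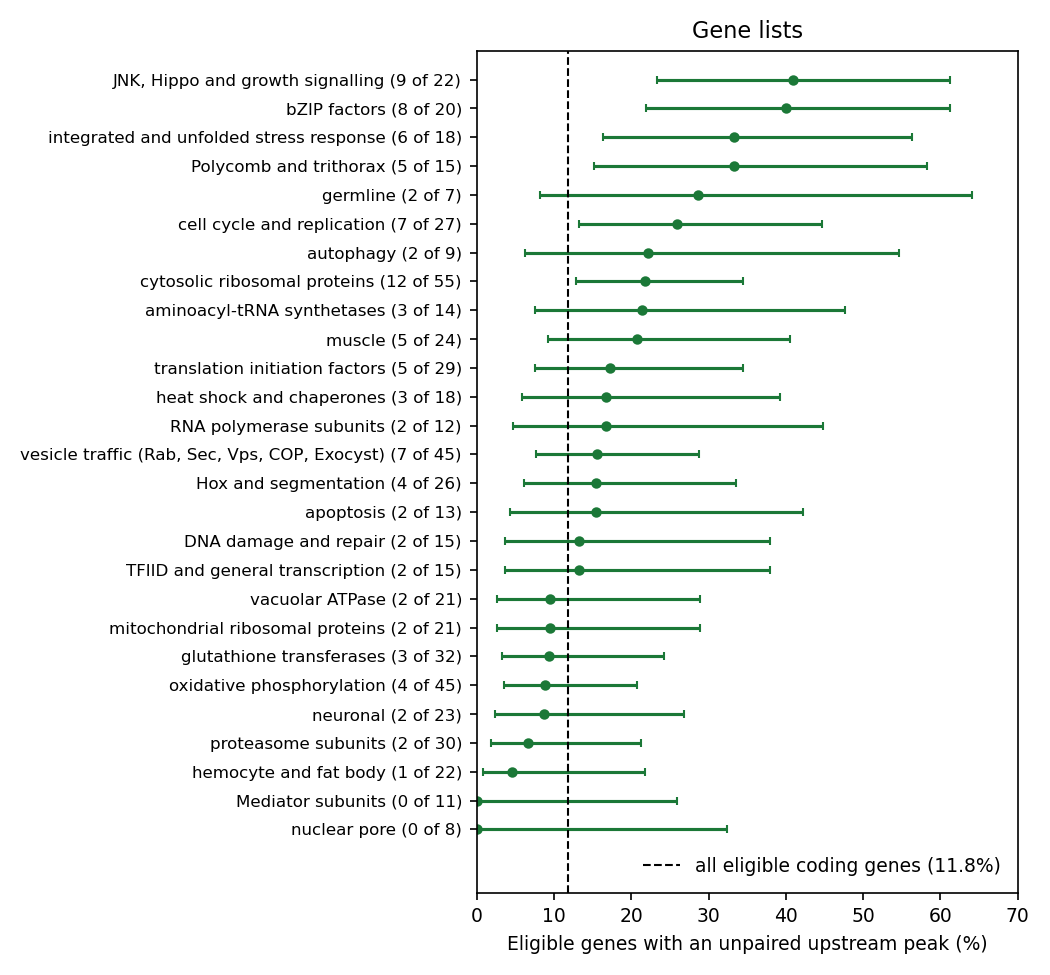
Share of eligible coding genes with an unpaired upstream peak (x axis, %) in 27 gene lists (y axis, with counts), with 95% Wilson intervals, against all eligible coding genes (dashed line, 11.8%). The interval lies above the line for the growth, bZIP, stress response, Polycomb, cell cycle and cytosolic ribosomal protein lists and includes it for the others.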

How the data were processed

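Peak lists from ChIP-seq of 2 biological replicates, 1 technical replicate each, were analysed, with coordinates in dm6 per the labels. Sonication gave fragments of 200 to 800 bp, per the labels' protocols. The age label holds another number than the 8 to 24 hours of the sample source, and the source was used. Peaks were called with a control, per the deposited notes. The sources used here do not name an aligner or a peak caller. The deposited lists passed the irreproducible discovery rate (IDR) procedure: a conservative list and a second list of both replicates, 1 list per replicate, and ranked lists without a threshold. Values in the deposited signal column are the authors' own, with scaling not stated, and are not compared between lists. The deposited ranked lists also give -log10 of the global IDR. The deposited summit offset, another value of the authors, gave the summit as start plus offset plus 1.

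TSSs and biotypes came from Ensembl release 115. Distances were taken from the summit, and equal distances went to a coding gene first (35 peaks had 2 or more genes at the same distance). A replicate's value at a peak is that of its strongest ranked peak covering the summit. The 15 motifs were searched on both strands. Calls used an adjusted p under 0.05 from Fisher's exact test, two-sided, with p-values adjusted (Benjamini-Hochberg) over all motifs and classes of a comparison. Shares have 95% Wilson intervals, for counting error only, and a count of 0 is given a limit of 3 counts. Depth is unknown, since there are no counts.

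Genes named were the 20 strongest peaks, up to 3 strongest of each list, Xrp1, Irbp18 and crc, the 5 strongest missing from each replicate's list, 3 on each side of the 500 bp bound, the strongest with each motif, and the genes with the most peaks. Other named genes, such as the remaining members of the bZIP, stress and growth lists, were chosen after their values were seen. The class, motifs and lists were chosen with earlier results of these data known. Sequences of 1 arm were not shown, and 1 gene of the growth list and 1 sequence are not reported here. The tests were tried on simulated windows. Software was matplotlib 3.10.9, pandas 2.3.3, SciPy 1.17.1, NumPy 2.4.6 and Python 3.11.15.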

Additional observations from a re-analysis of the deposited data

Results flagged for a closer look

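On the 6 arms, 148 peaks of the ranked list of both replicates reached a global IDR of 0.01 or less without being in the conservative list, data outside the comparisons above. Of these, 40 meet the rule for unpaired upstream peaks, and 4 of their genes also have such a peak in the conservative list. Named after their values were seen, the strongest were at larp, which encodes an RNA-binding protein of the La family (signal 1250.9, 332 bp upstream), and cbt, a zinc finger factor gene (740.1, 379 bp). Nuak, a kinase gene, had 363.5. These peaks entered no comparison here, and why the conservative list lacks them was not tested.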

How the results depend on the processing

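Replicate 2's own list gave 819 peaks in the class and replicate 1's 1381, and 7.15% and 11.9% of eligible genes. The share of genes was 13.2% in the second list of both replicates, 10.5% at a global IDR of at most 0.005, 12.6% with the 500 bp for other TSSs taken from the nearest TSS and 9.01% with 1 to 250 bp upstream. The difference in strong peaks from divergent pairs was lost with replicate 1's list (-3.45 points), replicate 2's (-0.659), an IDR of at most 0.005 (-1.66), distances from the TSS (-3.46) and all other genes counted as noncoding (-3.99). Against peaks with no TSS nearby it was lost only with the strongest 50% (2.84). The difference in replicate 2's list from divergent pairs was lost at an IDR of at most 0.005 (-3.84), with distances from the TSS (-3.47) and with 50% overlap (-3.18). That from peaks just downstream was lost at an IDR of at most 0.005 (6.07), and that from peaks with no TSS nearby at that IDR (1.56), with merged peaks (3.09), with 1 to 250 bp (2.26) and with 50% overlap (1.87). Motif calls against the other classes were 5 in replicate 1's list, 6 in replicate 2's and 1 in 51 bp windows. Those between the strongest and the weakest peaks were 4 in replicate 1's list, 1 in replicate 2's and 2 in 51 bp windows, and those by distance 4, 5 and 3 in the same order. The Initiator difference by distance was 2.58 in replicate 1's list and turned to -0.863 in replicate 2's. The positional difference between the strongest and the weakest peaks held under all alternatives run (without either replicate -20.3 and -24.5 points). That in A+T held too (35.9 and 37.7). Among summits more than 100 and up to 300 bp upstream, the A+T difference between their own strongest and weakest 25% was 27.4 and 35.7. The cause was not tested. No paired analysis was possible because all samples belong to a single group. Depth is unknown, and 2 replicates limit what the lists can show.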
